A study of Mus musculus with 41 samples.

Results

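Clone 4 and clone 2 are the 2 knockout lines of one experiment on Caprin1 in mouse embryonic stem cells, and here they were compared with each other in place of being pooled. The comparison took the 6 libraries labelled clone 4 and the 6 labelled clone 2 that were harvested at 2, 4 and 8 h, 2 libraries of each clone at each time, out of 41 samples in the series. All were R1 cells kept for 4 days with 1 µM retinoic acid in medium without LIF, the cytokine that holds stem cells in the undifferentiated state, and then given 2 µg/ml α-amanitin, which blocks RNA polymerase II. The 12 wild-type R1 libraries of the same times, treated alike, are shown beside the clones, and so are the libraries of 0 h (2 of clone 2 and 1 of clone 4), which entered only 1 alternative fit. The labels do not say which change each clone carries in Caprin1. Each clone is 1 line, so the loss of Caprin1 and anything else that a line acquired cannot be told apart. The labels do not say that libraries of a group came from separate cultures, and p-values measure the spread between libraries of 1 line, which may be technical.

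CAPRIN1 binds RNA in the cytoplasm and joins G3BP1 and G3BP2 in stress granules, the bodies in which stalled mRNAs collect when translation is blocked. Retinoic acid takes stem cells out of pluripotency through nuclear receptors, and among its known targets are the Hox genes, which set position along the body axis. In culture without LIF, part of the cells may also take an extraembryonic endoderm course under GATA4, GATA6 and SOX17 and lay down basement membrane of laminin and type IV collagen. Cultured stem cell lines are known to gain or lose pieces of chromosomes and to lose Y genes. A clone derived from 1 cell inherits those changes that this cell already had, and later ones may be in part of its cells. Levels below are CPM (TMM-scaled counts per 1e6 reads of a library), differences are log2 values of clone 4 minus clone 2, and "called" means that edgeR's quasi-likelihood test, with time as a block, gave an adjusted p (Benjamini-Hochberg, written FDR) under 0.05.

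The clones differed in Caprin1 itself. Caprin1 (ENSMUSG00000027184.14) lies on chromosome 2 (103762945 to 103797669, GRCm38). The lowest clone 2 library had 124 CPM, the median 133 and the highest 194, against 986, 1029 and 1217 CPM in clone 4 and 934, 979 and 1165 CPM in wild type. The clone groups did not overlap, while clone 4 lay within the range of wild type apart from its libraries of 4 h. The difference was 2.86 (SE 0.052, FDR 4.65e-22). At 0 h, in libraries the fit did not use, Caprin1 stood at 106 and 105 CPM in clone 2 and 1071 CPM in clone 4. Counts per gene do not tell whether the clone 4 transcript can be translated, and CAPRIN1 protein was not measured in these files.

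The partners of CAPRIN1 moved little. G3bp1, the stress granule scaffold, was lower in clone 4 (-0.32, SE 0.038, FDR 7.93e-08) and its paralogue G3bp2 higher (0.11, SE 0.037, FDR 0.0141). Usp10, a deubiquitinase that binds G3BP, was at -0.03 and not called (FDR 0.637), and the RNA-binding protein gene Fmr1 was lower by a small margin (-0.14, FDR 0.0139). The call of Fmr1 was lost with library totals alone (FDR 0.372), with wild type in the fit (FDR 0.0983) and at a mean of at least 5 CPM (FDR 0.051). It was also lost without the 2 h libraries (FDR 0.109), without the 4 h libraries (FDR 0.132) and with the 0 h libraries added (-0.08). At 0 h the ratio of Fmr1 levels went the other way (0.17). The call of G3bp2 was lost with wild type in the fit (FDR 0.153) and without the 2 h libraries (FDR 0.0926). Of 40 tested genes of CAPRIN1 partners and stress granule components, 13 were higher and 11 lower in clone 4. Over all genes tested, 31.9% were higher and 33.0% lower, so these counts were near the share of all genes. The median of the list was 0.03, against -0.02 over all genes tested. Caprin1 was the only one of them beyond 2-fold. The next largest were Stau2, which carries mRNA along dendrites (0.80), and Igf2bp2, an mRNA-binding protein of early development (-0.86).

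**Figure D1:**
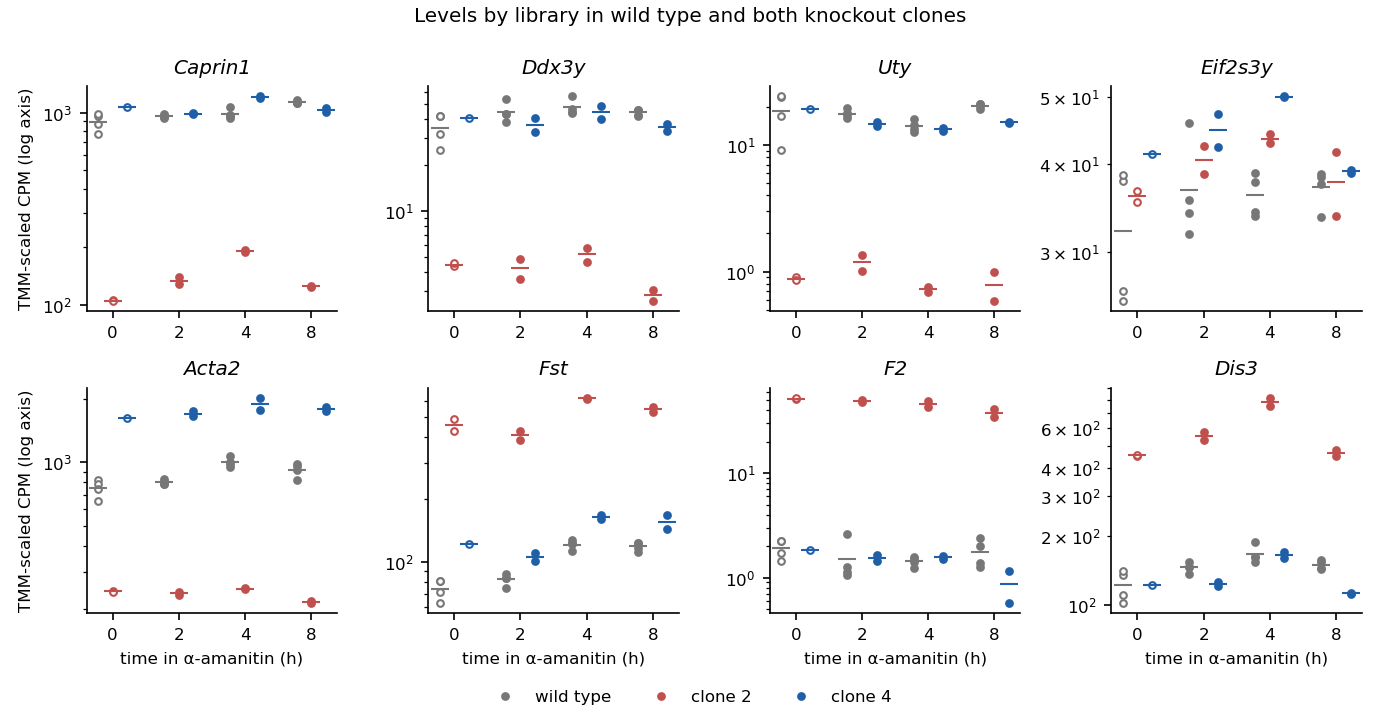
Level of 8 genes in each library (TMM-scaled CPM, log axis) at 0, 2, 4 and 8 h in α-amanitin, with wild type in grey, clone 2 in red and clone 4 in blue. Points are libraries, open at 0 h, and short lines are group means. Caprin1, Ddx3y, Uty and Acta2 are lower in clone 2 and Fst, F2 and Dis3 lower in clone 4 at each time, while Eif2s3y overlaps.

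Across the genome, 9146 of 14103 genes tested were called between the clones (64.9%), 4498 higher (31.9%) and 4648 lower (33.0%) in clone 4. Counts of called genes in the lists that follow are to be read beside these shares. Most of these differences were small: 5082 called genes differed by less than 1.5-fold, and the median size among called genes was 0.52. Beyond 2-fold the split was uneven, with 1602 genes higher (11.4%) and 670 lower (4.75%) in clone 4. Both libraries of one clone lay beyond both of the other at each of 2, 4 and 8 h for 6923 genes (49.1%), 3511 of them higher and 3412 lower in clone 4. When library totals alone set the scale, the split of called genes moved from 4498 higher and 4648 lower to 5424 and 3615, and that beyond 2-fold became 1753 and 568.

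Replicates of a clone lay close together: the chi-square per gene between replicates 1 and 2 was 1.62 to 5.84, and between clones at the same time 52.6 to 80.9. The first principal component, with 53.5% of the variance, separated the clones, and the next 2 (23.8% and 9.61%) separated the times. Total counts per library, in units of 1e6 reads, ran from 6.74 to 10.6, with 8.79 ± 0.963 in clone 2 and 8.18 ± 1.46 in clone 4 (SD, n = 6 each). The stem cell markers Pou5f1 (medians 117 and 110 CPM in clone 2 and clone 4), Sox2 (48.9 and 70.6) and Nanog (47.7 and 49.2) were present in both. The blood markers Ptprc and Hba-a1 were at or near 0.

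Against wild type, 10303 of 14336 genes were called in clone 2 (71.9%) and 7529 in clone 4 (52.5%). The same wild-type libraries served both comparisons. Among the 1602 genes more than 2-fold higher in clone 4 than in clone 2, the median difference from wild type was -1.49 in clone 2 and 0.01 in clone 4. Among the 670 that were more than 2-fold lower, it was 1.66 in clone 2 and 0.22 in clone 4. At 0 h the clones differed in the same direction for 1594 of the 1602 (99.5%) and for 667 of the 670 (99.6%), and over all genes tested for 11792 of 14103 (83.6%).

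The genes with the largest increases in clone 4 had varied roles. Sp5, a transcription factor and target of Wnt signalling, was listed between 0 and 0.469 CPM in clone 2 (median 0.168), and at 8.1, 10.5 and 15.4 CPM in clone 4 at lowest, median and highest. That is 10 reads over the 6 clone 2 libraries (exact 95% Poisson interval 4.8 to 18.4, which covers counting error only) against 551 reads in clone 4, so its fitted difference of 5.68 (SE 0.342, FDR 7.99e-11) rests on few reads in clone 2. Actc1, cardiac α-actin, had a median of 0.428 CPM in clone 2 (22 reads in all) and 12.5 CPM in clone 4 (difference 4.96, SE 0.223, FDR 3.61e-15). Col14a1, a fibril-associated collagen (4.75), Cyyr1 (4.62), the vasoconstrictor peptide gene Edn1 (4.18), the Wnt antagonist gene Dkk2 (4.03), Pcdh18, a protocadherin (3.82), the kidney and mesothelium regulator Wt1 (3.72), the growth factor gene Ptn (3.67) and the guidance cue Sema3c (3.51) followed. In wild type these genes stood far above clone 2: Sp5 had a median of 27.2, Actc1 24.9, Edn1 23.8 and Wt1 21.4 CPM. Ppbp, a platelet chemokine gene, was an exception, at 17.2 CPM in clone 4 against 1.48 in clone 2 and 0.972 in wild type (means; 3.57).

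The genes with the largest decreases in clone 4 were higher in clone 2 than in wild type as well, in each case named here. F2, which encodes prothrombin, had 34.5, 45.9 and 50.5 CPM in clone 2 at lowest, median and highest, against 0.573, 1.48 and 1.66 CPM in clone 4 and 1.05, 1.4 and 2.63 CPM in wild type. The groups of the 2 clones lay far apart, and clone 4 overlapped wild type. The difference was -5.07 (SE 0.121, FDR 3.17e-20), and at 0 h F2 was at 51.2 and 52.6 CPM in clone 2 and 1.82 CPM in clone 4. The intracellular tyrosine kinase gene Ptk6 was lower by -4.04 (SE 0.124, FDR 1.44e-17), with 23.3 to 81.6 CPM in clone 2 and 2.07 to 5.58 CPM in clone 4. The neural progenitor regulator Sox21 (-3.19), Pga5, a pepsinogen (-3.10), the calcium-binding S100a1 (-3.03), the neurotrophin receptor Ntrk2 (-3.01), Drp2 (-3.01), Arhgap30 (-2.87), the nucleoside transporter Slc28a1 (-2.86), Gpr180 (-2.86) and the angiotensin-converting enzyme gene Ace (-2.82) followed. Sox21 and Gpr180 lie in a stretch of chromosome 14 described further on.

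Promoter windows are shown for 4 genes whose difference between clones was large and which held a motif of the muscle or Wnt response. The CArG box, bound by serum response factor in muscle and cytoskeletal genes, was searched on both strands. It was taken only in the strict form CCWWWWWWGG, where W is A or T. CTTTGAT, a site of the TCF and LEF factors of Wnt signalling, was searched likewise. The windows are from RefSeq on GRCm38.p6, run from 250 bases before to 50 bases after the annotated start, and are written 5′ to 3′ on the gene's strand with the matched motif in capitals. A CArG box was held by 425 of 27025 such windows (1.57%), and the TCF and LEF motif by 1006 (3.72%). Among the 10639 windows of genes tested here, these numbers were 146 (1.37%) and 249 (2.34%).
Actc1: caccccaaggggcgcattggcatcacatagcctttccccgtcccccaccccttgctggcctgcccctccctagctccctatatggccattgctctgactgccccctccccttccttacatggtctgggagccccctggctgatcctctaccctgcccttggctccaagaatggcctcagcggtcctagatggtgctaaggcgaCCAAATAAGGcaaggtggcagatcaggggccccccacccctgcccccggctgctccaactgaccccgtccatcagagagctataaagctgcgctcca
Myl9: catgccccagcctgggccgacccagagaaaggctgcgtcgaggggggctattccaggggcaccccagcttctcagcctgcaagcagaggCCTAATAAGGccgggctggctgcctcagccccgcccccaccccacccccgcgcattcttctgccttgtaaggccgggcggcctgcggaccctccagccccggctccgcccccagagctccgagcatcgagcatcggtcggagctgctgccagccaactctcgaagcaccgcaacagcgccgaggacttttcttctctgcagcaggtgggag
Sp5: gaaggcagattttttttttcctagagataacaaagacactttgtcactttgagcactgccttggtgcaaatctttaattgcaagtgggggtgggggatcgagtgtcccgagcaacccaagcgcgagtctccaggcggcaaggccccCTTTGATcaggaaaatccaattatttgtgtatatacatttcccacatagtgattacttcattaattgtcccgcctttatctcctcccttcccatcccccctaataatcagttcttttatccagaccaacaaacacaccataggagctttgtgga
Wnt11: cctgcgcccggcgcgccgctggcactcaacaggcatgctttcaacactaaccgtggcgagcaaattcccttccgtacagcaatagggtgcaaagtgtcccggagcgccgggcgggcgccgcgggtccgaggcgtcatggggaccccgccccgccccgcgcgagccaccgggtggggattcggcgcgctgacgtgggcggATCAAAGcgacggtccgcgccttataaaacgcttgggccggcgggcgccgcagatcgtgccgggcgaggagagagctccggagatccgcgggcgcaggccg
The windows lie at chr2:114052826-114053125, minus strand (Actc1), chr2:156775214-156775513, plus strand (Myl9), chr2:70474673-70474972, plus strand (Sp5) and chr7:98834862-98835161, plus strand (Wnt11). The first base of the match was 47 bases before the start in Actc1, 161 in Myl9, 104 in Sp5 and 51 in Wnt11. Of the tested smooth muscle genes described next, 10 had a window and 1 (Myl9) held a CArG box in the strict form. Near matches were not counted, such as CCCTATATGG in the window of Acta2. Of the tested Wnt pathway genes, 18 had a window and 2 (Sp5 and Wnt11) held CTTTGAT. Sp5 was higher and Wnt11 lower in clone 4, so genes with the same 7 letters differed in direction. A match is a description of the letters in these windows.

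Contractile genes of smooth muscle were higher in clone 4 as a group. All 14 tested members were higher, 13 of them beyond 2-fold, with a median of 2.57, against -0.02 over all genes. Acta2, smooth muscle α-actin (ENSMUSG00000035783.9; chromosome 19, 34240336 to 34255585), had 215, 239 and 251 CPM in clone 2 at lowest, median and highest, 1651, 1760 and 2010 in clone 4, and 783, 928 and 1073 in wild type. The 3 lines did not overlap, with clone 4 highest and clone 2 lowest. The clone difference was 2.92 (SE 0.047, FDR 6.41e-23), and Acta2 was at 245 and 243 CPM in clone 2 and 1610 in clone 4 at 0 h. Lmod1, which nucleates actin filaments (2.82), and Cnn1, the actin-binding calponin (2.79), showed the same order, with medians of 9.26 and 16.6 CPM in clone 2, 36.2 and 73.5 in wild type and 58.5 and 114 in clone 4. Myl9, a myosin light chain, was at a median of 37 CPM in clone 2 and 210 CPM in clone 4 (2.56), and Myocd, the coactivator that drives the program, at 0.651 and 5.04 CPM (2.95).

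Collagens and other fibroblast or mesenchyme genes were also higher in clone 4. Of 25 tested, 23 were higher, 20 beyond 2-fold, and 1, the matrix gene Fbln1, was lower (-0.22), with a median of 1.72. Col3a1, type III collagen, was 2.59 higher (27.6 to 50.6 CPM in clone 2 and 220 to 260 in clone 4), the proteoglycan gene Ogn 2.50 and the type V collagen gene Col5a2 2.25. Their summed level was 1280 to 1690 CPM in clone 2, 4770 to 5270 CPM in clone 4 and 1640 to 2000 CPM in wild type. Members did not stand in one order against wild type: Col3a1 had a median of 306 CPM there, above the 232 CPM of clone 4, whereas Thy1, a surface marker of fibroblasts, had 6.66 CPM in wild type, 17.7 in clone 2 and 59.2 in clone 4. None of the defining markers was at 0 in clone 4, although Lum, a cartilage and fibroblast proteoglycan, ranged there from 0.115 to 8.12 CPM with a median of 1.06. Feeder fibroblasts, on which stem cells are often grown, express these genes and many of the smooth muscle genes. Their part in the smooth muscle, Hox and mesoderm results was not tested.

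Xist, the RNA that coats the inactive X chromosome of female cells, was higher in clone 4. It ranged from 8.47 to 16.6 CPM in clone 2 (median 11.6), from 26.3 to 64.3 in clone 4 (median 31.9) and from 7.65 to 11.8 in wild type (median 9.37). The clones did not overlap, and the difference was 1.61 (SE 0.212, FDR 8.16e-05). At 0 h Xist stood at 10.7 and 11.5 CPM in clone 2 and 34.5 CPM in clone 4. Ftx, a noncoding gene of the same locus, was lower (-0.55), but not called without the libraries of 4 h (FDR 0.0884).

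Of 31 tested Hox genes, 29 were higher in clone 4 and 0 lower, 18 of them beyond 2-fold, with a median of 1.16. Hoxa9, which marks the trunk, was at 1.52 to 2.96 CPM in clone 2, 10.5 to 14.4 in clone 4 and 4.58 to 10.5 in wild type (2.54, SE 0.134, FDR 7.33e-14). Hoxb9 (2.15) had medians of 9.74 CPM in clone 2, 42.1 in clone 4 and 47 in wild type, and Hoxc8 was 2.14 higher. The 2 not called were Hoxb1 (0.06) and Hoxb4 (-0.10). These 2 were the tested Hox genes nearest to no difference, and every other was at 0.54 or more.

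Retinoic acid response genes went both ways. Of 25 tested, 17 were higher, 13 beyond 2-fold, and 4 lower in clone 4, with a median of 1.02. The orphan receptor gene Nr2f1 (2.49) and the crosslinking enzyme gene Tgm2 (2.01) were higher. Cyp26a1, the enzyme that clears retinoic acid, had 189, 460 and 577 CPM in clone 2 at lowest, median and highest and 72.9, 146 and 229 in clone 4, which overlapped across times but not within a time (-1.48, SE 0.0505, FDR 2.05e-17). Stra6, a receptor for vitamin A uptake (-0.87), and Cyp26c1 (-0.85) were lower as well.

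Neuroectoderm and mesoderm genes were mostly higher in clone 4. Of 23 neuroectoderm genes, 16 were higher and 3 lower (median 1.05), with the progenitor filament gene Nes at medians of 50.5 CPM in clone 2 and 291 in clone 4 (2.57), Zic1 at 2.91 and Sox11 at 1.93, against Nkx6-2 at -1.98 and the Notch ligand gene Dll1 at -1.05. Sox1 was not called (-0.29, FDR 0.205), although it was without the libraries of 2 h (FDR 0.0495). Of 16 primitive streak and mesoderm genes, 12 were higher and 3 lower (median 1.44). Hand2, a heart and limb regulator, was at 1.4 to 2.75 CPM in clone 2 and 15.3 to 22.4 in clone 4 (3.28), and Snai2 (1.52) and Bmp4 (1.47) were higher, whereas Snai1 (-1.27) and Eomes (-0.56) were lower. Mesp1 was at or near 0 in both clones.

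Extraembryonic endoderm genes were lower in clone 4 than in clone 2. Of 25 tested matrix and secreted products of this lineage, 23 were lower, 15 beyond 2-fold, and 0 higher, with a median of -1.08. Their summed level was 79900 to 92800 CPM in clone 2, 35000 to 43900 in clone 4 and 23600 to 28700 in wild type. Fst, the activin-binding follistatin, had 389, 545 and 619 CPM in clone 2 at lowest, median and highest, 100, 153 and 168 in clone 4 and 74.8, 114 and 127 in wild type (-1.89, SE 0.0471, FDR 6.94e-20). Ttr, a thyroid hormone carrier (-2.77), and the receptor gene Pth1r (-2.18) were lower by more, and the laminin chain Lama1 was at medians of 13855 CPM in clone 2, 5593 in clone 4 and 3232 in wild type (-1.33). Of 9 transcription factors of the endoderm, 8 were lower and 1 higher (median -1.25). Hnf4a (-2.26), Gata4 (-1.35) and Sox17 (-1.31) were lower, and Foxa1 was higher (0.86). Markers of this lineage were thus present in all 3 lines, and in these bulk libraries fewer cells of a type and less RNA per cell cannot be told apart.

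Pluripotency genes split, with 6 of 26 higher and 12 lower in clone 4 (median -0.21). Klf5 was the lowest (-1.66) and lies in the chromosome 14 stretch described further on, followed by Tcl1 (-1.64) and Tdgf1, a coreceptor for Nodal (-1.09), while Utf1 (0.98) and Dppa2 (0.74) were higher. Of 12 formative and primed epiblast genes, 8 were higher and 1 lower (median 0.41), with Lef1 (2.98) first. Of 11 trophoblast genes, 5 were higher and 1 lower, with Gata2 (1.72) and Gata3 (0.84) higher and Tead4 lower (-0.55). Epithelial genes were divided, 10 of 19 higher and 8 lower, with the cadherin genes Cdh3 (2.37) and Cdh1 (0.89) higher and the tight junction gene Ocln lower (-1.07). Genes of the 2-cell-like state stood at 5 higher and 5 lower of 14, in families whose near-identical copies share reads. The germline genes stood at 6 higher and 7 lower of 18. The share over all genes tested was 31.9% higher and 33.0% lower in clone 4.

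**Figure D2:**
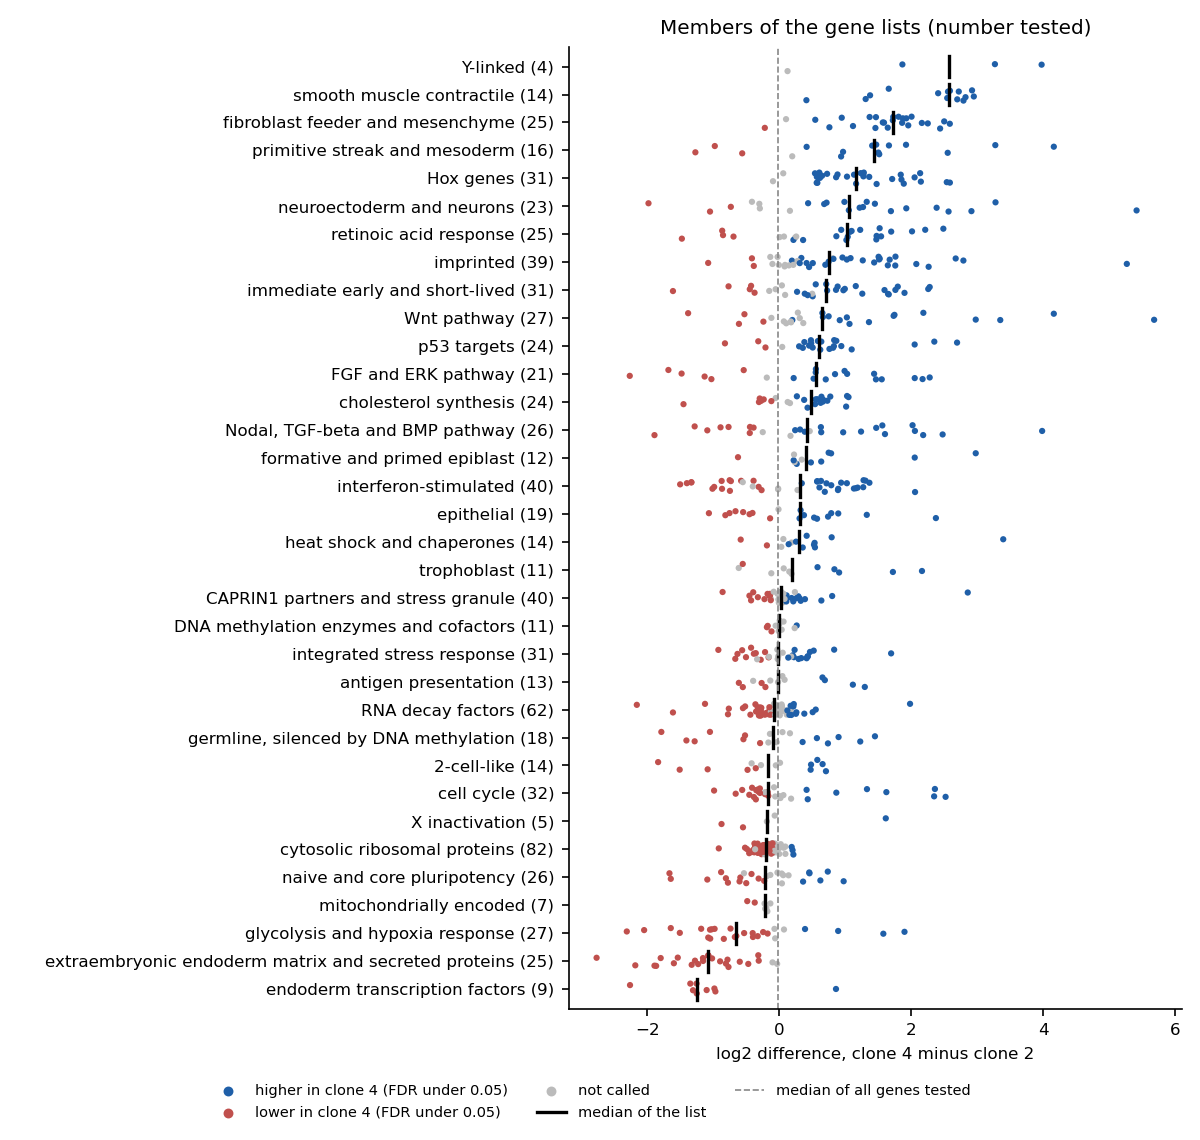
Each point is 1 tested gene of a list, placed by its log2 difference of clone 4 minus clone 2 (x axis); lists are rows in the order of their medians, with the number tested. Blue and red mark genes higher and lower in clone 4 (FDR under 0.05), grey those not called, the black bar the list's median and the dashed line the median of all genes tested. Smooth muscle genes all lie right of the dashed line and endoderm matrix genes all left of it.

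Signalling lists held more genes higher than lower in clone 4, with members in both directions in each. Among all genes tested, 31.9% were higher and 33.0% lower. Of 27 Wnt pathway genes, 15 were higher and 4 lower in clone 4 (median 0.65): next to Sp5, the R-spondin gene Rspo3 (3.35) and the nuclear effector Lef1 (2.98) were higher, and the ligand genes Wnt11 (-1.38) and Wnt7b (-0.61) and the antagonist gene Dkk1 (-0.53) lower. Wnt7b was not called without the libraries of 4 h (FDR 0.289). Of 21 FGF and ERK genes, 14 were higher and 6 lower (median 0.56). The receptor gene Fgfr1 was higher (1.55) and Fgfr4 lower (-1.68), the ligand gene Fgf3 was lower (-2.27), and the ERK phosphatase genes Dusp4 (2.28) and Dusp6 (2.17) were higher. Dusp6 had 19.5, 50.8 and 66.6 CPM in clone 2 at lowest, median and highest and 117, 183 and 278 in clone 4. Of 26 Nodal, TGF-β and BMP genes, 15 were higher and 8 lower (median 0.42), with the ligand genes Tgfb2 (2.48), Inhba (2.18) and Tgfb3 (2.06) higher and Fst and Bmp2 (-1.28) lower. Of 31 immediate early and other short-lived transcripts, 21 were higher and 5 lower (median 0.71).

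Imprinted genes, expressed from 1 parental copy, were more often higher in clone 4: 26 of 39 were higher, 16 beyond 2-fold, and 3 lower (median 0.75). The growth regulator Plagl1 had 22.1, 27.1 and 32.5 CPM in clone 2 at lowest, median and highest, 162, 194 and 208 in clone 4 and 271, 345 and 408 in wild type (2.79, SE 0.0584, FDR 3.51e-21). Both clones thus lay below wild type without overlap, with clone 2 lower. Dio3, which inactivates thyroid hormone (2.67), and Mest (1.76) were higher in clone 4, and H19 (-0.39) and Igf2r (-0.41) lower. H19 overlapped between clones, with medians of 94.8 CPM in clone 2 and 73.2 in clone 4, both far below the 327 of wild type. At 0 h its ratio was above 0 (0.16). Airn, the noncoding RNA antisense to Igf2r, was named after its values were seen: it had 10 reads over the 6 clone 2 libraries and 410 in clone 4 (5.27, SE 0.267), and since the counting's strand setting is not given in the sources used here, its reads and those of Igf2r introns may mix. Of 11 genes for DNA methylation enzymes and their cofactors, 1 was higher (Dnmt3a, 0.26) and 3 lower (Tet1, Setdb1 and Trim28). With library totals alone, Tet1 (FDR 0.19), Setdb1 (FDR 0.0843) and Trim28 (FDR 0.603) were not called. Dnmt1 was not called (0.01, FDR 0.907), but was with library totals alone (0.10, FDR 0.0355).

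Targets of p53 were higher in clone 4 in 20 of 24 cases and lower in 3 (median 0.60), although only 4 passed 2-fold. The death receptor gene Fas (2.70), the adhesion and apoptosis gene Perp (2.35) and the kinase gene Plk2 (2.05) led, and Ddb2, a DNA damage sensor, was lower (-0.82). Cell cycle genes went the other way in number, 8 of 32 higher and 17 lower (median -0.17), but the largest differences were increases: Cdk6 (2.52), Cdkn2b (2.36) and Ccnd1 (2.35). Cdkn2b, an inhibitor of CDK4 and CDK6, had 9.49, 11.2 and 15.2 CPM in clone 2 at lowest, median and highest, 53.5, 59.7 and 69.8 in clone 4 and 48.8, 60.3 and 67.6 in wild type. Neighbours of Cdkn2b were looked up after its value was seen. Cdkn2a, which encodes INK4A and ARF (chromosome 4, 89274473 to 89294619), had 16.8 to 19.9 CPM in clone 2, 44.2 to 71.3 in clone 4 and 52.3 to 71.9 in wild type (1.62, SE 0.0742). Mtap, a methionine salvage enzyme (89137370 to 89181090), had medians of 52.5 CPM in clone 2, 134 in clone 4 and 118 in wild type (1.33, SE 0.0522).

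Metabolic and stress lists differed less evenly, where 31.9% of all genes tested were higher and 33.0% lower in clone 4. Of 27 glycolysis and hypoxia response genes, 20 were lower and 4 higher in clone 4 (median -0.65), with the oxygen-sensing hydroxylase Egln3 (-2.31), Ndrg1 (-2.05) and the aldolase gene Aldoc (-1.65) lower and the peptide gene Adm higher (1.90). Of 82 cytosolic ribosomal protein genes, 54 were lower and 3 higher, none beyond 2-fold (median -0.20); pseudogenes of this family can share reads. Of 40 interferon-stimulated genes, 20 were higher and 15 lower (median 0.31), Gbp2 at 1.37 and Lgals9 at -1.40, and their summed level was 1060 to 1350 CPM in clone 2, 775 to 1010 in clone 4 and 380 to 419 in wild type. The clones' median difference in this list went from 0.58 at 2 h through 0.15 to -0.04 at 8 h. The integrated stress response stood at 13 higher and 11 lower of 31, antigen presentation at 4 and 4 of 13, cholesterol synthesis at 15 and 6 of 24, and heat shock genes and chaperones at 9 and 2 of 14, where Hspb8, a small heat shock protein, was 3.40 higher. Of 7 mitochondrially encoded mRNAs tested, mt-Nd1 (-0.37, FDR 0.0364) and mt-Nd2 (-0.49, FDR 0.0417) were lower and 0 higher. The calls of mt-Nd1 and mt-Nd2 were lost with upper-quartile scaling, with no filter and with the 0 h libraries added. With library totals alone, without the 2 h libraries, without the 4 h libraries, or without any 1 library of those times or replicate 1 of clone 4 at 8 h, 0 were called. All 7 were lower without the 8 h libraries or without replicate 2 of clone 4 at 8 h. The median of these genes was -0.47 at 2 h and -0.51 at 4 h, and above 0 at 8 h (0.29) and at 0 h (0.75). The mitochondrial ribosomal RNA genes, outside that list, were also lower with time as a block: mt-Rnr1 (-0.61, FDR 6.955e-06) and mt-Rnr2 (-0.65, FDR 0.00759). At 8 h mt-Rnr2 overlapped, with 768.6 and 692.9 CPM in clone 2 and 684 and 781.6 in clone 4. At that time mt-Rnr1 had 462.2 and 395.8 CPM in clone 2 and 317.2 and 365.4 in clone 4. Their ratios at 0 h were above 0 (0.07 for mt-Rnr1 and 0.37 for mt-Rnr2).

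Of 62 RNA decay factors, 27 were lower and 12 higher in clone 4 (median -0.08), where 33.0% of all genes tested were lower and 31.9% higher. With library totals alone, 22 were lower and 18 higher (median 0.01). The exonuclease genes Xrn1 (-0.01, FDR 0.951) and Xrn2 (0.04, FDR 0.418) were not called, and Xrn2 was with library totals alone (0.13, FDR 0.0093). Dis3, the catalytic nuclease of the RNA exosome (ENSMUSG00000033166.11; chromosome 14, 99076634 to 99099780), had 454, 554 and 814 CPM in clone 2 at lowest, median and highest, 112, 124 and 171 in clone 4 and 137, 153 and 188 in wild type. The clones did not overlap (-2.16, SE 0.0443, FDR 2.57e-21). Btg1 (-1.61) and Tob1 (-1.13), which recruit the CCR4-NOT deadenylase, were also more than 2-fold lower, and the decay activators Zfp36 (0.55) and Btg2 (0.51) higher.

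Dis3 lies in a stretch of chromosome 14 where nearly every tested gene was higher in clone 2. The limits of the stretch, from Mzt1 to Gm16835 (99034544 to 119115074, GRCm38, 20.1 Mb), were read from the values, so what follows is a description with no test. Of its 37 tested genes, 33 were lower in clone 4, all 33 beyond 2-fold, 2 were higher (Klf12, 1.41, and Tpm3-rs7, 1.16) and 2 were not called (Scel and Slitrk5). The median was -1.95, a 3.87-fold difference, and within single times it was between -2.0 and -1.89. Against wild type the median was 1.97 in clone 2 and 0.07 in clone 4. At 0 h, in libraries that did not set the limits, 35 of the 37 were below 0, with a median of -1.70.

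Genes of the stretch had unrelated roles. They included the stem cell regulator Klf5 (medians 1445 CPM in clone 2, 458 in clone 4 and 364 in wild type), the FGF feedback inhibitor Spry2 (223, 80.9 and 71.8 CPM) and the microtubule nucleation gene Mzt1 (244, 54.2 and 76 CPM). Mir17hg, the host transcript of the miR-17-92 cluster, was at 33.4, 78.8 and 84.9 CPM in clone 2 at lowest, median and highest and at 8.94, 12.6 and 14.5 CPM in clone 4 (-2.43, SE 0.156, FDR 6.08e-08). Mature miRNAs were not measured in these libraries. The RefSeq record of Mir17hg (115044390 to 115046728) covers miR-92a, and the other 5 miRNAs lie just before it. The RefSeq sequences (GRCm38.p6) are given in the order of the cluster, with the seed (bases 2 to 8, which pair with targets) in capitals, because the whole cluster, with 4 different seeds, lies in the stretch.
mmu-miR-17-5p: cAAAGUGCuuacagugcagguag
mmu-miR-18a-5p: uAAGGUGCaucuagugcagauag
mmu-miR-19a-3p: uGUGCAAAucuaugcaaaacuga
mmu-miR-20a-5p: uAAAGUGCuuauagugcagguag
mmu-miR-19b-3p: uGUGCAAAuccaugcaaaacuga
mmu-miR-92a-3p: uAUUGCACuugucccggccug
The miRNAs miR-17 and miR-20a share a seed, and so do miR-19a and miR-19b.

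Beyond the stretch the difference turned. From Mbnl2 to Tmtc4 (120275652 to 122983285), 15 of 16 tested genes were higher in clone 4 and 0 lower, with a median of 0.87, and -0.68 in clone 2 against 0.06 in clone 4 relative to wild type. At 0 h all 16 were above 0. Before the stretch, the gene Dach1 was higher in clone 4 (2.35), and the 408 tested genes of the chromosome up to and including it had a median of -0.07. Runs of 50 neighbouring tested genes were taken across the genome, each starting 1 gene after the last. They overlap, so their number is not one of separate regions. Of 12791 runs, 28 had a median beyond 1 in either direction, and all 28 were on chromosome 14. Elsewhere the medians ran from -0.36 to 0.62, and the highest run held Cdkn2a and Cdkn2b. DNA copy number was not measured in these files.

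**Figure D3:**
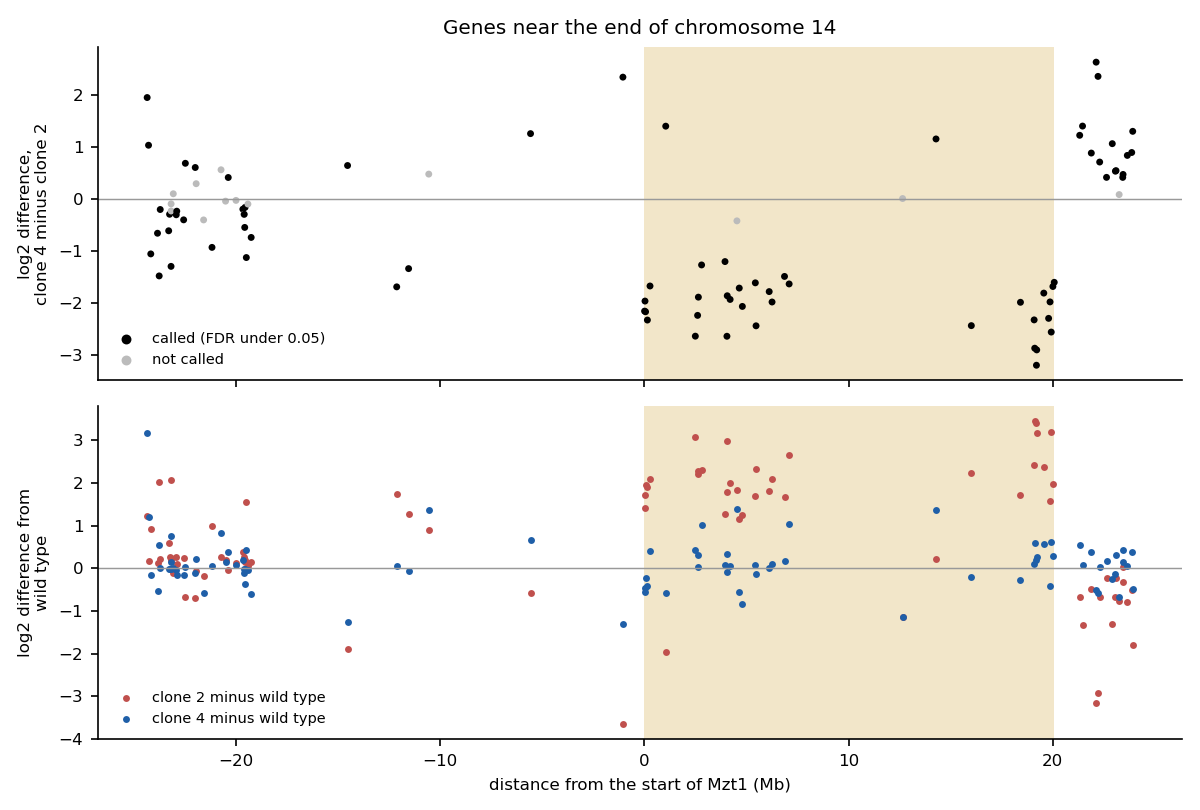
Log2 differences of tested genes near the end of chromosome 14 by distance from the start of Mzt1 (Mb), with clone 4 minus clone 2 above (black called, grey not called) and each clone minus wild type below (clone 2 red, clone 4 blue). The shaded stretch holds 37 genes with a median of -1.95 between clones; against wild type the median is 1.97 in clone 2 and 0.07 in clone 4.

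On the Y chromosome, a pair of neighbouring genes was low in clone 2 and another gene beside them was not. Uty, a histone demethylase family gene (chromosome Y, 1085187 to 1245773), had 0.586, 0.876 and 1.34 CPM in clone 2 at lowest, median and highest, 12.8, 14.5 and 15.3 in clone 4 and 12.6, 17.4 and 21.2 in wild type (3.98, SE 0.15, FDR 1.40e-16). Ddx3y, an RNA helicase gene next to it (1260715 to 1286628), had 2.59, 4.15 and 5.78 CPM in clone 2 and 33.1, 38.8 and 49.2 CPM in clone 4 (3.27, SE 0.113, FDR 2.33e-17). Eif2s3y, a translation initiation factor gene on the other side of Uty (1010562 to 1049134), overlapped between clones, at 33.8 to 44.2 CPM in clone 2 and 38.9 to 50.1 in clone 4, and was not called (0.13, FDR 0.0770). Ddx3y, Uty, Eif2s3y and Kdm5d have X-linked relatives of similar sequence, whose reads may be assigned to them in part. Kdm5d was low throughout, with medians of 0.544, 2.1 and 0.13 CPM in clone 2, clone 4 and wild type. It was called higher in clone 4 (1.87, FDR 5.673e-06) and lay above wild type in both clones (1.78 in clone 2 and 3.63 in clone 4). At 0 h Uty was at 0.903 and 0.857 CPM in clone 2 and 19.3 CPM in clone 4.

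The clones also differed in how levels moved between the libraries of 2, 4 and 8 h in α-amanitin. Of 14494 genes tested within single times, the 2 h libraries gave 7097 calls (49.0%), those of 4 h 7375 (50.9%) and those of 8 h 8467 (58.4%), and for 2328 genes the clone difference itself changed with time (16.1%). That count was 1205 with DESeq2 and 1458 without replicate 2 of clone 4 at 8 h. Levels are shares of the RNA present in a library. A transcript that decays slower than the average thus rises in share while no new RNA is made. Some levels fell and then returned. The ribosomal protein gene Rplp0 had 590 and 544 CPM in clone 2 at 2 h. It had 271 and 261 CPM at 4 h, and 578 and 550 at 8 h. Clone 4 had 694 and 668, 324 and 313, and 643 and 594 CPM at these times. Hours in the drug cannot be told apart from other differences between the libraries of each time, and the cause was not tested.

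Zyx, a focal adhesion protein gene, had the lowest p in this test. In clone 2 its libraries stood at 188.2 and 188 CPM at 2 h, 280.1 and 282 at 4 h, and 93.52 and 81.14 at 8 h, and in clone 4 at 398.6 and 388.5, 511.3 and 464.7, and 390.1 and 403.4 CPM. Between 4 and 8 h the level in clone 2 fell far more than in clone 4, and the difference was 1.06 at 2 h, 0.81 at 4 h and 2.17 at 8 h (clone-by-time FDR 3.55e-17). For Ets1, a transcription factor gene, the difference narrowed from 1.40 and 1.59 to 0.30 (FDR 5.09e-16), as the clone 2 libraries went from 73.36 and 69.61 CPM at 4 h to 125 and 120.5 at 8 h. Cemip, a hyaluronan-degrading enzyme gene, was called only at 8 h among the 3 times (-0.02, 0.07 and -1.12, FDR 1.52e-16), where clone 2 held 369.2 and 377 CPM against 173.2 and 172.7. Amotl2, a regulator of Hippo signalling, likewise differed at 8 h (0.87, against -0.01 and -0.10), at 222 and 222.6 CPM in clone 2 and 398.6 and 422.6 in clone 4 (FDR 2.68e-14).

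**Figure D4:**
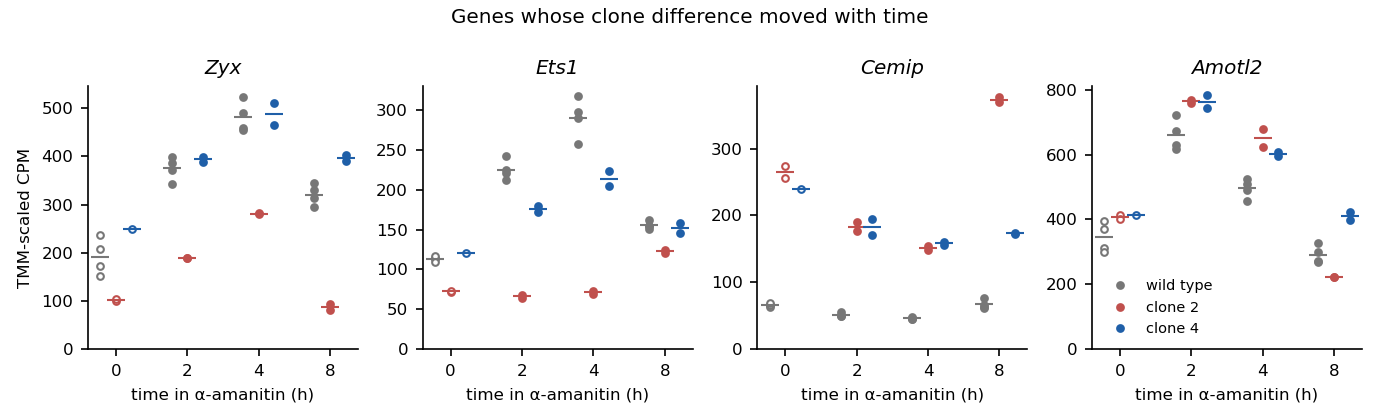
Level of Zyx, Ets1, Cemip and Amotl2 in each library (TMM-scaled CPM, linear axis from 0) at 0, 2, 4 and 8 h in α-amanitin, wild type grey, clone 2 red and clone 4 blue, open points at 0 h and short lines for means. At 8 h clone 2 sits below clone 4 for Zyx, Ets1 and Amotl2 and above it for Cemip.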

How the data were processed

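The measurements are RNA-seq, from a stranded mRNA kit per the labels' protocols. The deposited tables hold raw counts per gene, 1 table per time and 1 column per library, per the file headers, with a further column of another kind, the gene length, which the authors deposited beside them and which was not used. The submitters' processing notes list STAR 2.4.0.1, TopHat, FastQC 0.11.9, Cufflinks, Cuffdiff, DESeq2, and the builds mm10 and GRCm38. Not given in the sources used here are the counting tool, its strand setting and the annotation.

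Tables were joined on the Ensembl identifier: of 51520 lines, 110 repeated an identifier with identical counts and were dropped, and 50703 of 51410 identifiers matched a symbol. The 12 clone libraries were fitted in R 4.3.3 with edgeR 4.0.16 (TMM, filterByExpr, robust quasi-likelihood fit, time as a block). Differences within times and their change with time came from a fit of 6 clone and time groups, and differences from wild type from a fit of 24 libraries and 3 lines. P-values were adjusted over all genes tested. The SE is the log2 difference divided by the square root of the F statistic. The script was tested on simulated data with known changes. CPM levels were TMM-scaled over all 31 libraries, and ratios at 0 h had 0.5 CPM added. Positions and sequences are from RefSeq (GRCm38.p6).

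The members, lists and rules were chosen with earlier results of these data known. Named genes are Caprin1, G3bp1, G3bp2, Usp10 and Fmr1; 12 called genes in each direction, ranked by size of difference among those with a mean of 5 CPM or more and clones separate at each time, predicted genes left out; up to 3 called members in each direction per list at that mean, with the first 2 members of a list where not called; and the 4 genes with the lowest p for the change with time. Others were named after their values were seen: list members without an extreme value, Airn, Cdkn2a, Mtap and genes of chromosomes 14 and Y. Alternatives covered scaling, filters, DESeq2 1.42.0, the replicate block and libraries or times left out. Of the listed genes, 4 symbols had no match (brachyury, 1 imprinted and 2 short-lived genes), and those genes were not analysed here. Some genes that the rule names are not reported here.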

Additional observations from a re-analysis of the deposited data

Results flagged for a closer look

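Among 33 named genes tested in the 6 libraries of each clone, 2 had a library far from the other 5. Chance would flag about 1 in 20 of the 66 groups if the libraries of a group shared 1 level. Each group mixes libraries of 2, 4 and 8 h, so this rate is approximate. Dkk2 in clone 2 stood at 1.01 CPM in replicate 1 at 4 h, against 0.637 to 0.703 CPM in the others. Dkk2 had 36 reads in all over the 6 clone 2 libraries, so this gap rests on few reads. Ptk6 in clone 4 stood at 5.58 CPM in replicate 1 at 8 h, against 2.07 to 3.18 CPM in the others.

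The clone difference depended on time most clearly in 4 genes, by the test of the change itself: Zyx (FDR 3.55e-17), Ets1 (FDR 5.09e-16), Cemip (FDR 1.52e-16) and Amotl2 (FDR 2.68e-14).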

How the results depend on the processing

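Of the genes named by the rule, none that was called in the clone comparison changed direction under any alternative run. Of those not called, 6 did under at least 1: Usp10, Xrn1, Dnmt1, and, without the 8 h libraries, Sox1 (0.09), Cemip (0.03) and Amotl2 (-0.06). The count of called genes was 9146, 7340 to 9715 under the other scalings, filters, DESeq2, wild type in the fit and the removal of a time, and 9924 with the 0 h libraries added. The number of genes tested differed between these runs. It was 14103 for the 9146, 10783 for the 7340 (mean of at least 5 CPM) and 31427 for the 9715 (no filter). Tested against a difference of 1.5-fold in place of 0, the count of called genes was 2843. Leaving out 1 library gave 8898 to 9147 for the clone comparison, 5903 to 6176 at 2 h, 5941 to 6700 at 4 h, 7111 to 7680 at 8 h, 10084 to 10438 for clone 2 against wild type and 6927 to 7689 for clone 4 against wild type. Genes whose difference changed with time numbered 2328, but 1205 with DESeq2, and 1458 to 2203 with 1 library left out, the lowest without replicate 2 of clone 4 at 8 h. The cause was not tested. Without the 37 genes of the chromosome 14 stretch, an alternative chosen after seeing the data, 9110 genes were called.

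Deviations of same-numbered libraries of the clones correlated at 0.03, 0.01 and 0.06 at the 3 times. Such low correlations show no strong shared deviation but cannot tell whether libraries were handled in pairs. With the replicate block, 8962 genes were called between clones, against 9146 without it. At 2, 4 and 8 h, 7304, 7570 and 8659 were called with it, against 7097, 7375 and 8467 without. The change with time was called for 2804, against 2328. A 2-against-2 comparison within a time rests on the spread shared by all 6 groups. Genes with few reads in clone 2, such as Sp5 and Airn with 10 each, have fitted differences that depend on the prior count.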
